A study of Mus musculus with 8 samples.

Results

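Cd200 encodes a membrane ligand of the immunoglobulin superfamily, and Cd200r1, Cd200r2 and Cd200r4 encode members of its receptor family. These 4 genes were taken by symbol from the 32285 genes of the count tables, because earlier results of the same data had shown receptor transcripts in expanded Cd8 T cells, so their levels by cell class and by clone size are given as a description. A UMI of Cd200 was found in 1455 of 53033 kept cells (2.74%), of Cd200r1 in 3097 (5.84%), of Cd200r2 in 1086 (2.05%) and of Cd200r4 in 2982 (5.62%). Cd200r3, the remaining mouse receptor gene of the family, had a UMI in 69 cells (0.130%) and is given only for completeness.

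CD200 on one cell engages CD200R1 on another, and CD200R1 carries a signaling tail that recruits the adaptors DOK2 and DOK1 and through RASA1 restrains the RAS and MAP kinase pathway. The other receptors of the mouse family lack such a tail and are known to pair with the activating adaptor DAP12, encoded by Tyrobp. In the immune system CD200 is known on activated T cells and follicular helper T cells, and CD200R1 on myeloid cells and on subsets of T cells.

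Bone marrow T cells were compared between Runx1 Runx1t1/+; Mx1-Cre mice, which carry a heterozygous conditional knock-in of the Runx1::Runx1t1 fusion gene of acute myeloid leukemia, and control mice, all on the C57BL/6 strain. The methods give the controls as Runx1 Runx1t1/+ without Mx1-Cre, while their labels read WT. Mx1-Cre is an interferon-driven recombinase active across blood cells, switched on in this model by 4 doses of Poly(I:C), each of 5 mg/kg, and marrow was taken 4 weeks after induction. T cells were enriched by depletion and sorted as DAPI-, mCherry- and CD3+, so the sorted cells lacked the fusion reporter, and 10x 5′ gene expression and T cell receptor (TCR) libraries were made from 2 pools of 2 mice per group. The age of the mice is not given in the sources used here. The pools are called Control 1, Control 2, Runx1::Runx1t1 1 and Runx1::Runx1t1 2 below, in that order wherever 4 values follow each other, and tests used n = 2 pools per group except where a pool is said to be left out. The methods give mice of both groups as littermates of the same sex, and tie no pool to a litter.

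The 4 gene expression libraries held between 90831447 and 102759716 UMIs in barcodes that passed the limits on genes and mitochondrial UMIs, and 12764 to 13795 cells were kept per pool. Over all deposited barcodes, before these limits, the medians were 6239 to 6368 UMIs per barcode. Each pair of libraries shared 256 to 306 barcode sequences, at most 2.10% of a library. A level is the number of UMIs of a gene scaled to 1000000 UMIs of the same cells (CPM). A cell class was set by UMIs: Cd8 T cells (26856 cells), Cd4 T cells without Foxp3 (5774), Foxp3 T cells (1496) and T cells without a co-receptor UMI (14091) all had a Cd3 UMI, and Kit Cd34 progenitors (576) had none. Intervals on shares are 95% Wilson intervals and cover counting error only. Pools are separate samples in the labels, and a smaller share of expressing cells cannot be told apart from less RNA per cell in sums over a pool.

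All 6 T cell markers were detected in each T cell class of each pool. Progenitors lacked T cell signal by their definition, with 6.41 to 10.8 CPM summed over the 6 T cell markers, but they were not one population across groups. Cpa3, a mast cell and basophil protease, was found in 98.1% and 98.4% of progenitors of the Runx1::Runx1t1 pools and in 5.88% and 9.88% of those of the control pools. Flt3, a receptor of multipotent and lymphoid progenitors, showed the opposite order with 43.8% and 41.1% against 79.4% and 79.8%. Of the 5 mast cell and basophil markers, 2 and 3 passed 10% of progenitors in the Runx1::Runx1t1 pools and 0 in either control pool. Cpa3 alone thus does not name the cell type. Some of this RNA also appeared in other classes, since the 5 mast cell and basophil markers summed to 52.7 and 58.6 CPM in Cd8 T cells of the Runx1::Runx1t1 pools and to 0.184 and 0.443 CPM in those of the controls. The part of such RNA in the levels below was not tested.

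All 5 genes of the family lie on mouse chromosome 16 (GRCm38). The receptor genes follow each other on the plus strand in the order Cd200r1 (44765736 to 44794978), Cd200r4 (44811733 to 44839150), Cd200r2 (44867097 to 44915840) and Cd200r3 (44943678 to 44981380), with 16754, 27946 and 27837 bases between neighbours. Cd200 lies 400754 bases further on, at 45382135 to 45409053, on the minus strand. Transcripts of the receptors share sequence, which matters for counting: of the 31-base stretches of Cd200r2 transcripts, 6.80% also occurred in Cd200r4 and 3.60% in Cd200r1. Cd200 shared none with any receptor. Over 91 bases, the length closer to that of a read, only Cd200r2 and Cd200r4 shared stretches, 20 in all, which were 1.20% of those of Cd200r2 and 0.979% of those of Cd200r4. Reads lying wholly within these stretches could not be assigned to one of the pair. The place of the stretches along the transcripts was not examined. Their weight in 5′ libraries, and so the margin on small counts of either gene, is not known.

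The promoters of the ligand and of both activating receptors that moved with clone size are shown here from RefSeq (GRCm38.p6), 250 bases before to 50 bases after the annotated start, in the direction of transcription. RefSeq promoters were matched for 4 of the 5 genes, and Cd200r1 had no entry. Both strands were searched for a T-box motif (TCACACCT), a Runx motif (ACCACA), an AP-1 motif (TGANTCA) and the canonical NF-kB decamer, which were chosen with the expression pattern known. Capitals mark a match, and a match is only a run of letters, not a binding site. Cd200r2 lies at chr16:44866847-44867146 on the plus strand, Cd200r4 at chr16:44820478-44820777 on the plus strand and Cd200 at chr16:45409004-45409303 on the minus strand.
Cd200r2: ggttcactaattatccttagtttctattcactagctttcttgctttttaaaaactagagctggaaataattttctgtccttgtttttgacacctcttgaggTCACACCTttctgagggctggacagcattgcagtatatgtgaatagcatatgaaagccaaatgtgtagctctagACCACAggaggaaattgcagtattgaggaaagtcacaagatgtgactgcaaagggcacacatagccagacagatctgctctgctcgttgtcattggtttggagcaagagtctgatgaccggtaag
Cd200r4: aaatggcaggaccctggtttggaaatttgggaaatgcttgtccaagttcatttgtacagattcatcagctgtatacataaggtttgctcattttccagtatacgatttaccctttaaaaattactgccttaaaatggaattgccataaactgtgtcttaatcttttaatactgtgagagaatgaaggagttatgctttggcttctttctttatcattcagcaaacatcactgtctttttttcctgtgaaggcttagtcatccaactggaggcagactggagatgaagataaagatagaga
Cd200: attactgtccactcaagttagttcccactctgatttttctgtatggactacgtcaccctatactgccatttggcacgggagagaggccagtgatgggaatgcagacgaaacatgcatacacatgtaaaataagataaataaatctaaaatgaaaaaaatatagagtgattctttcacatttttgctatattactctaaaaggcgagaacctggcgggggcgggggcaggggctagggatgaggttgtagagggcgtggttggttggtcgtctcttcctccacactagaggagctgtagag
Cd200r2 held a T-box match beginning 149 bases before the start and a Runx match beginning 75 bases before it. No match to any of the 4 motifs was found in these windows of Cd200r4, Cd200r3 or Cd200. Of 32851 RefSeq promoters of the same length, 1.28% held the T-box letters, 16.8% the Runx letters, 7.81% the AP-1 letters and 0.155% the NF-kB letters. The RefSeq start of Cd200r4 lies inside the gene as annotated for the count tables, so its window need not be the promoter in use. Part of the Cd200r4 window aligned with that of Cd200r3, with 179 of 213 aligned bases identical (84.0%).

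Cd200, the ligand, was highest in Cd4 T cells and Foxp3 T cells. In Cd4 T cells it stood at 29.2, 15.2, 22.2 and 15.7 CPM (20.6 ± 6.57, SD over the 4 pools), and in Foxp3 T cells at 27.4, 18.6, 15.7 and 18.0 CPM (19.9 ± 5.14). These classes overlapped, and neither was separated from the other beyond the spread of the pools. T cells without a co-receptor UMI had 3.01, 2.30, 4.32 and 5.49 CPM, Cd8 T cells 2.17, 1.15, 1.76 and 3.53 CPM, and progenitors 2.03, 5.67, 1.70 and 0.709 CPM. The last 3 classes overlapped each other, and in every pool all of them lay below both Cd4 classes. As shares of cells, a Cd200 UMI was found in 11.2%, 6.40%, 9.01% and 7.54% of Cd4 T cells and in 1.33%, 0.766%, 1.23% and 2.48% of Cd8 T cells, although Cd8 T cells had more UMIs per cell (medians of 7038 against 5174). With each cell thinned to 2000 UMIs the shares were 5.69%, 2.52%, 3.52% and 2.25% in Cd4 T cells and 0.543%, 0.283%, 0.314% and 0.625% in Cd8 T cells.

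**Figure D1:**
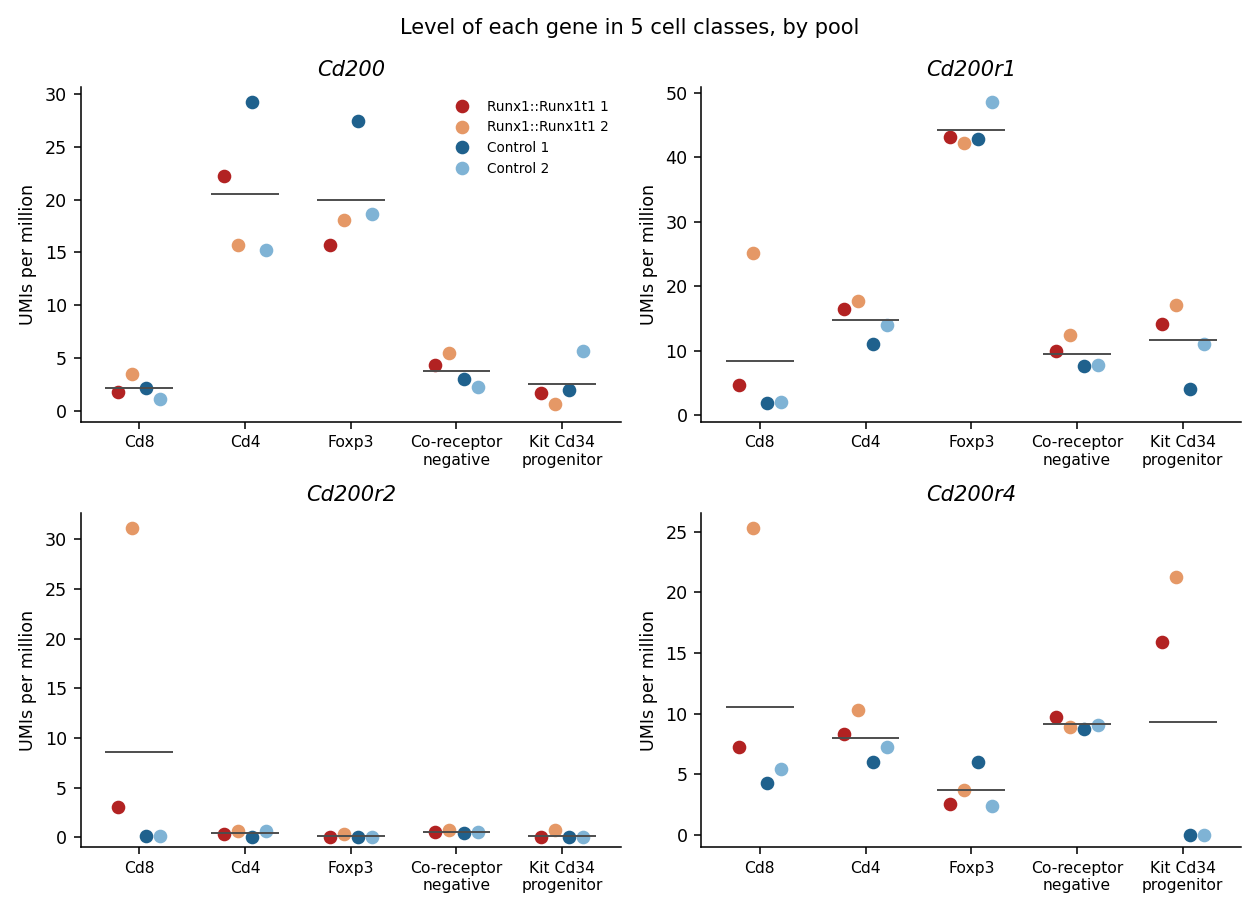
Levels of Cd200, Cd200r1, Cd200r2 and Cd200r4 in CPM (vertical axes) in each cell class (horizontal axes), with 1 colored point per pool and a line at the mean of the 4 pools. Cd200 stands highest in Cd4 and Foxp3 T cells, Cd200r1 in Foxp3 T cells, and Cd200r2 rises above 1 CPM only in Cd8 T cells of the Runx1::Runx1t1 pools, at 3.08 and 31.1 CPM.

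Cd200r1, the inhibitory receptor, was highest in Foxp3 T cells, the regulatory class. Its levels there were 42.8, 48.5, 43.2 and 42.2 CPM (44.2 ± 2.93, SD over the 4 pools), so the pools lay close together and both groups overlapped. A UMI was found in 18.3%, 19.2%, 16.3% and 19.1% of Foxp3 T cells. The other classes came lower: 11.0, 14.1, 16.4 and 17.7 CPM in Cd4 T cells, 4.06, 11.1, 14.2 and 17.0 CPM in progenitors, and 7.56, 7.77, 9.88 and 12.5 CPM in T cells without a co-receptor UMI. These 3 classes overlapped one another. Cd8 T cells had 1.91, 2.10, 4.75 and 25.1 CPM, which was the lowest T cell class in 3 pools and exceeded every class but Foxp3 T cells in Runx1::Runx1t1 2. Control 1 had 34 progenitors and 2 Cd200r1 UMIs among them, so its value there is little more than a trace.

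Cd200r2, an activating receptor, was low in every class but the Cd8 T cells of the Runx1::Runx1t1 pools. In Cd8 T cells it stood at 0.138, 0.181, 3.08 and 31.1 CPM, and neither Runx1::Runx1t1 pool overlapped the controls. These are 6, 9, 171 and 1813 UMIs, found in 0.0833%, 0.118%, 1.19% and 12.2% of the cells. In Cd4 T cells, Foxp3 T cells, T cells without a co-receptor UMI and progenitors it stayed at or below 0.709 CPM in every pool. In both control pools T cells without a co-receptor UMI had more of it than Cd8 T cells, at 0.430 and 0.583 CPM (12 and 16 UMIs). Among Foxp3 T cells 1 UMI was counted in the 1496 cells of the 4 pools, whose median depth was 4870 UMIs against 7038 in Cd8 T cells, and it came from Runx1::Runx1t1 2, where the share was 0.210% (95% Wilson interval 0.0370% to 1.18%), with none in the other 3 pools. The shares in Cd8 T cells of both control pools lay inside that interval. Resting on 1 UMI, it is too wide to tell low expression from background, so these shares are not read either way.

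Cd200r4, the other activating receptor, had a low level in each T cell class. T cells without a co-receptor UMI had 8.74, 9.08, 9.70 and 8.92 CPM, the narrowest spread of any class. Cd4 T cells had 6.00, 7.26, 8.34 and 10.3 CPM, Foxp3 T cells 5.99, 2.43, 2.56 and 3.74 CPM, and Cd8 T cells 4.27, 5.46, 7.23 and 25.3 CPM. Among Cd8 T cells the control pools were lowest and Runx1::Runx1t1 2 stood apart from the other 3 pools. Progenitors differed between the groups, with no Cd200r4 UMI in either control pool and 15.9 and 21.3 CPM in the Runx1::Runx1t1 pools. In the latter, 28 and 30 UMIs were found in 13.1% and 17.1% of 160 and 129 cells, while the floor of 3 UMIs was 6.09 and 0.740 CPM in the controls. Fusion pool progenitors were also the Cpa3 cells described above, so the receptor level cannot be told apart from the change in the kind of progenitor. Cd200r3, known from mast cells and basophils, had 3 and 5 UMIs in the same progenitors, or 1.70 and 3.55 CPM, and none in the control progenitors.

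To ask whether the family differed between the genotypes within the other classes, UMI counts were summed per pool and compared by edgeR's quasi-likelihood test with Benjamini-Hochberg adjustment over all genes tested. No member was called in Cd4 T cells, where 342 of 11267 genes (3.04%) were called, 209 higher (1.85%) and 133 lower (1.18%). There the log2 change in the Runx1::Runx1t1 group was -0.19 for Cd200 (SE 0.28, adjusted p = 0.752), 0.49 for Cd200r1 (SE 0.17, adjusted p = 0.178) and 0.54 for Cd200r4 (SE 0.23, adjusted p = 0.244). Both receptors were higher in each Runx1::Runx1t1 pool than in each control pool, but the sign for Cd200 was not stable and became positive, at 0.05 and 0.33, without Runx1::Runx1t1 2 or without Control 1. Cd200r2 had too few UMIs to be tested in Cd4 T cells, as had Cd200r2 and Cd200r4 in Foxp3 T cells. In Foxp3 T cells, where 11 of 9413 genes (0.117%) were called, 10 higher (0.106%) and 1 lower (0.0106%), Cd200 changed by -0.42 (SE 0.25, adjusted p = 0.593) and Cd200r1 by -0.08 (SE 0.16, adjusted p = 0.908), a sign that turned to 0.04 without Control 2.

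In T cells without a co-receptor UMI, where 823 of 12800 genes (6.43%) were called, 528 higher (4.12%) and 295 lower (2.3%), Cd200 came nearest to the threshold. Its level was higher in both Runx1::Runx1t1 pools than in both controls, with a log2 change of 0.80 (SE 0.25, adjusted p = 0.114). Cd200r1 changed by 0.46 (SE 0.15, adjusted p = 0.123), again without overlap of the pools. Cd200r4 changed by -0.00298 (SE 0.14, adjusted p = 0.994), and Cd200r2 rested on 7 to 16 UMIs per pool, at 0.12 (SE 0.50, adjusted p = 0.917). Both signs turned when Runx1::Runx1t1 2 was left out, to 0.08 for Cd200r4 and -0.06 for Cd200r2. This class changed in its makeup as well: the NK and innate-like list of 7 genes summed to 1522 and 1325 CPM in the controls and to 831 and 614 CPM in the Runx1::Runx1t1 pools, and the 4 regulatory markers summed to 214 and 193 CPM in the controls and to 510 and 522 CPM in the Runx1::Runx1t1 pools. A Foxp3 UMI was found in 3.99% and 4.97% of these cells in the controls and in 15.3% and 13.7% in the Runx1::Runx1t1 pools. The part of these shifts in the Cd200 and Cd200r1 values was not tested. Tyrobp, the DAP12 adaptor of the activating receptors and a member of that list, fell by 1.32 on the log2 scale (SE 0.12, adjusted p = 0.00244), from 392 and 328 CPM to 162 and 141 CPM.

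In Cd8 T cells, 16 of 13330 genes (0.12%) were called between the groups by edgeR, 9 higher in the Runx1::Runx1t1 group (0.0675%) and 7 lower (0.0525%). Cd200 was not among them, with a log2 change of 0.61 (SE 0.42, adjusted p = 0.437) and overlapping pools. The receptors were chosen on this difference, and their log2 changes are given without a test: 2.80 for Cd200r1 (SE 0.74), 6.61 for Cd200r2 (SE 1.35) and 1.65 for Cd200r4 (SE 0.54). Runx1::Runx1t1 2 carried most of each, as its levels above show. Without that pool the log2 changes were 1.24 for Cd200r1, 4.23 for Cd200r2 and 0.56 for Cd200r4.

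In Cd8 T cells the receptor levels followed the size of the clone. A clonotype is a set of cells with the same nucleotide CDR3 of the TRA and of the TRB chain, and its size was counted over all kept cells of the pool. Among Cd8 T cells whose clonotype was found once (4349, 4715, 4146 and 3088 cells), Cd200r1 stood at 1.41, 1.91, 1.63 and 1.72 CPM, Cd200r4 at 3.86, 4.87, 4.10 and 3.40 CPM, and Cd200r2 at no more than 0.447 CPM. The groups overlapped for Cd200r1 and Cd200r4 in these single cells, and for Cd200r2, with 1 to 13 UMIs per pool, as well. Cd8 T cells without a full pair of chains (1262, 1255, 1326 and 1688 cells) entered no size bin.

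Cd200r1 was higher the larger the clone in both Runx1::Runx1t1 pools. In clonotypes of 2 to 4 cells it stood at 2.15, 3.24, 4.82 and 17.5 CPM, and in those of 5 to 19 cells at 10.3, 4.45, 13.5 and 44.4 CPM. In clonotypes of 20 or more cells, which Control 1 did not have, no UMI was found in Control 2 (92 cells, where the floor of 3 UMIs was 5.75 CPM), and it stood at 33.8 and 88.9 CPM in the Runx1::Runx1t1 pools (632 and 1953 cells). The controls thus showed the receptor in medium clones. In Control 2 the level in those clones, 4.45 CPM, lay below the floor of its largest clones. The lack of a UMI there therefore cannot show a fall.

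Cd200r2 was highest in the largest clones. In clonotypes of 2 to 4 cells it had 2.15, 1.44, 0 and 17.5 CPM. In those of 5 to 19 cells it had 1.29, 0, 0.792 and 20.8 CPM. In clonotypes of 20 or more cells it reached 36.0 and 127 CPM in the Runx1::Runx1t1 pools, with none in Control 2. Runx1::Runx1t1 1 had 1, 0 and 2 UMIs in the smaller bins and 128 in that bin, whereas Runx1::Runx1t1 2 had 26 already in clonotypes of 2 to 4 cells.

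Cd200r4 was higher in clonotypes of 5 to 19 cells than in single cells in every pool. From single cells to clonotypes of 5 to 19 cells it went from 3.86 to 18.1 CPM in Control 1, from 4.87 to 11.5 in Control 2, from 4.10 to 18.2 in Runx1::Runx1t1 1 and from 3.40 to 51.0 in Runx1::Runx1t1 2. In clonotypes of 20 or more it stood at 15.3, 34.6 and 84.5 CPM in the latter 3 pools. At 5 to 19 cells Control 1 and Runx1::Runx1t1 1 were at the same level. The ligand did not follow this order: Cd200 stood at 2.42, 1.24, 1.39 and 2.13 CPM in single cells, at 1.43, 1.08, 4.38 and 4.70 CPM in clonotypes of 2 to 4 cells, and at 2.58, 0.636, 5.55 and 9.32 CPM in those of 5 to 19 cells. In both bins the Runx1::Runx1t1 pools lay above the controls, and at 20 or more cells the level was 1.97 and 6.05 CPM in them, with none in Control 2.

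**Figure D2:**
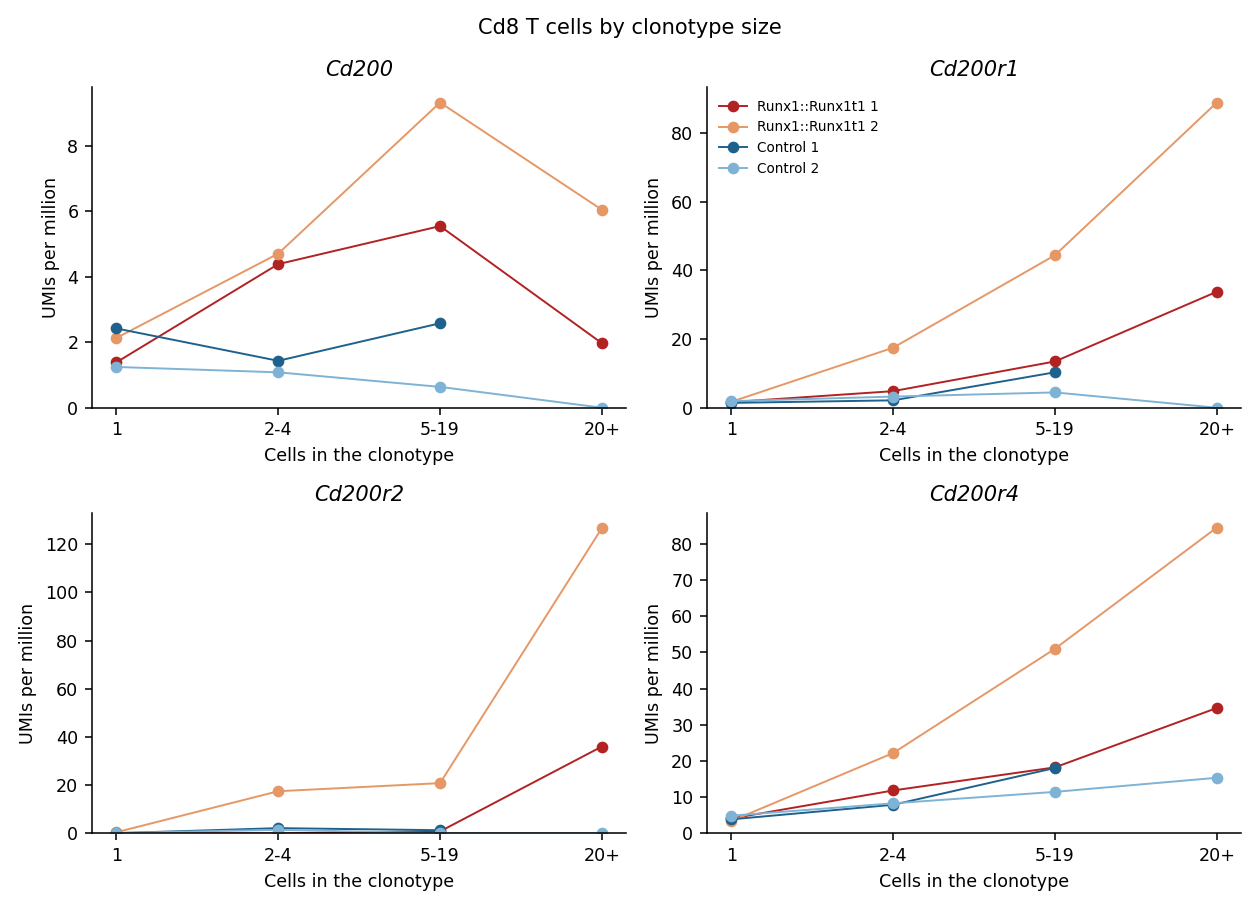
Levels in CPM (vertical axes, each on its own scale) of Cd200, Cd200r1, Cd200r2 and Cd200r4 in Cd8 T cells by the number of cells in the clonotype (horizontal axes), 1 line per pool. The lines meet in single cells and fan out with clone size, with Runx1::Runx1t1 2 at 88.9 (Cd200r1), 127 (Cd200r2) and 84.5 CPM (Cd200r4) in clonotypes of 20 or more cells, and Control 1 has no such clonotype.

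Expanded Cd8 T cells, those in clonotypes of 5 or more cells, were compared with single Cd8 T cells in a fit that kept the pool as a block. By edgeR's quasi-likelihood test 3028 of 12679 genes (23.9%) were called, 1441 higher in expanded cells (11.4%) and 1587 lower (12.5%). For the family the difference is a description: 0.65 for Cd200 (SE 0.43), 3.46 for Cd200r1 (SE 0.68), 7.02 for Cd200r2 (SE 0.81) and 2.59 for Cd200r4 (SE 0.49). Whether the difference by clone size itself differed between the groups was tested as an interaction, which called 0 of 12679 genes (0%) by edgeR, against 1763 at an unadjusted p under 0.05 and 135 called by DESeq2. As a description, the interaction was 1.98 on the log2 scale for Cd200 (SE 0.76), 3.05 for Cd200r1, 6.47 for Cd200r2 and 1.93 for Cd200r4.

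A single clone held much of the receptor RNA of each Runx1::Runx1t1 pool. In Runx1::Runx1t1 2 the largest clonotype, with TRAV6-6 and TRBV1, had 1093 Cd8 T cells (15.1% of the class) and held 52.8% of the Cd200r1, 75.1% of the Cd200r2 and 50.5% of the Cd200r4 UMIs of Cd8 T cells. In Runx1::Runx1t1 1 the largest, with TRAV9D-3 and TRBV17, had 111 cells (1.62%) and held 32.2%, 66.7% and 16.7% of them. Both clones had the receptors at similar levels, 118 and 120 CPM of Cd200r1, 159 and 212 CPM of Cd200r2 and 93.4 and 116 CPM of Cd200r4, in the order Runx1::Runx1t1 1 and 2. Their pools thus differed in the size of the leading clone more than in the level within it. In the expanded cells outside the largest clonotype, Cd200r1 stood at 9.78, 3.57, 12.9 and 51.1 CPM, Cd200r2 at 1.40, 0, 2.99 and 27.7 CPM, and Cd200r4 at 18.2, 12.2, 19.03 and 49.4 CPM, so without these clones only Runx1::Runx1t1 2 remained well above the controls.

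Receptor RNA was not a property of every large clone. Of the 27 clonotypes with at least 20 Cd8 T cells in the Runx1::Runx1t1 pools (13 and 14), 12 had Cd200r1 in over 20% of cells, 11 had Cd200r4 and 6 had Cd200r2. No UMI was found of Cd200r1 in 7 of the 27, of Cd200r4 in 4 and of Cd200r2 in 16. All 3 receptors passed 10% of cells in 7 clonotypes, and none of them passed 5% in 4. The 4 such clonotypes of Control 2 had no UMI of Cd200, Cd200r1 or Cd200r2, and Cd200r4 in at most 18.2% of cells.

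The clonotypes fell into kinds that can be seen in single examples. Besides both leading clones, whose shares of cells with Cd200r1, Cd200r2 and Cd200r4 were 44.1%, 48.6% and 40.5% (TRAV9D-3) and 46.1%, 57.3% and 43.9% (TRAV6-6), the clone with TRAV12D-2 and TRBV19 in Runx1::Runx1t1 2 (63 cells) had 47.6%, 52.4% and 58.7%. Large clones with few or no receptor UMIs stood beside these in the same pools. In Runx1::Runx1t1 2 the second largest, with TRAV8D-2 and TRBV26 (165 cells), had 0.606%, 0% and 7.27%, and in Runx1::Runx1t1 1 a TRAV14-1 clone of 75 cells had 0%, 0% and 5.33%. A middle kind had Cd200r1 and Cd200r4 with little or no Cd200r2, as in the TRAV6N-6 and TRBV1 clone of 44 cells with 29.5%, 0% and 25.0%, which was also among the highest in the ligand with Cd200 in 18.2% of cells.

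Cd200r2 was the most restricted of the receptors across clones. It passed 5% of cells in 8 of the 27 clonotypes, and in all 8 of them Cd200r1 and Cd200r4 passed 20%. In 3 clonotypes Cd200r1 and Cd200r4 passed 20% at full depth while Cd200r2 stayed under 5%. Thinned to 2000 UMIs, their Cd200r4 shares were 0% and 14.3% (TRAV6N-6 clones of 44 and 42 cells) and 6.25% (TRAV13-1). Median depth across these 27 clonotypes ran from 4259 to 10010 UMIs per cell, and with each cell thinned to 2000 UMIs both leading clones still had Cd200r2 in 22.5% and 29.95% of cells, against 0% in the TRAV8D-2 and the TRAV14-1 clones. Over the 27 clonotypes, which share 2 libraries, Pearson's r of the shares was 0.774 for Cd200r1 with Cd200r2, 0.888 for Cd200r1 with Cd200r4 and 0.856 for Cd200r2 with Cd200r4. For Cd200 with the receptors it ran from -0.0510 to 0.312.

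**Figure D3:**
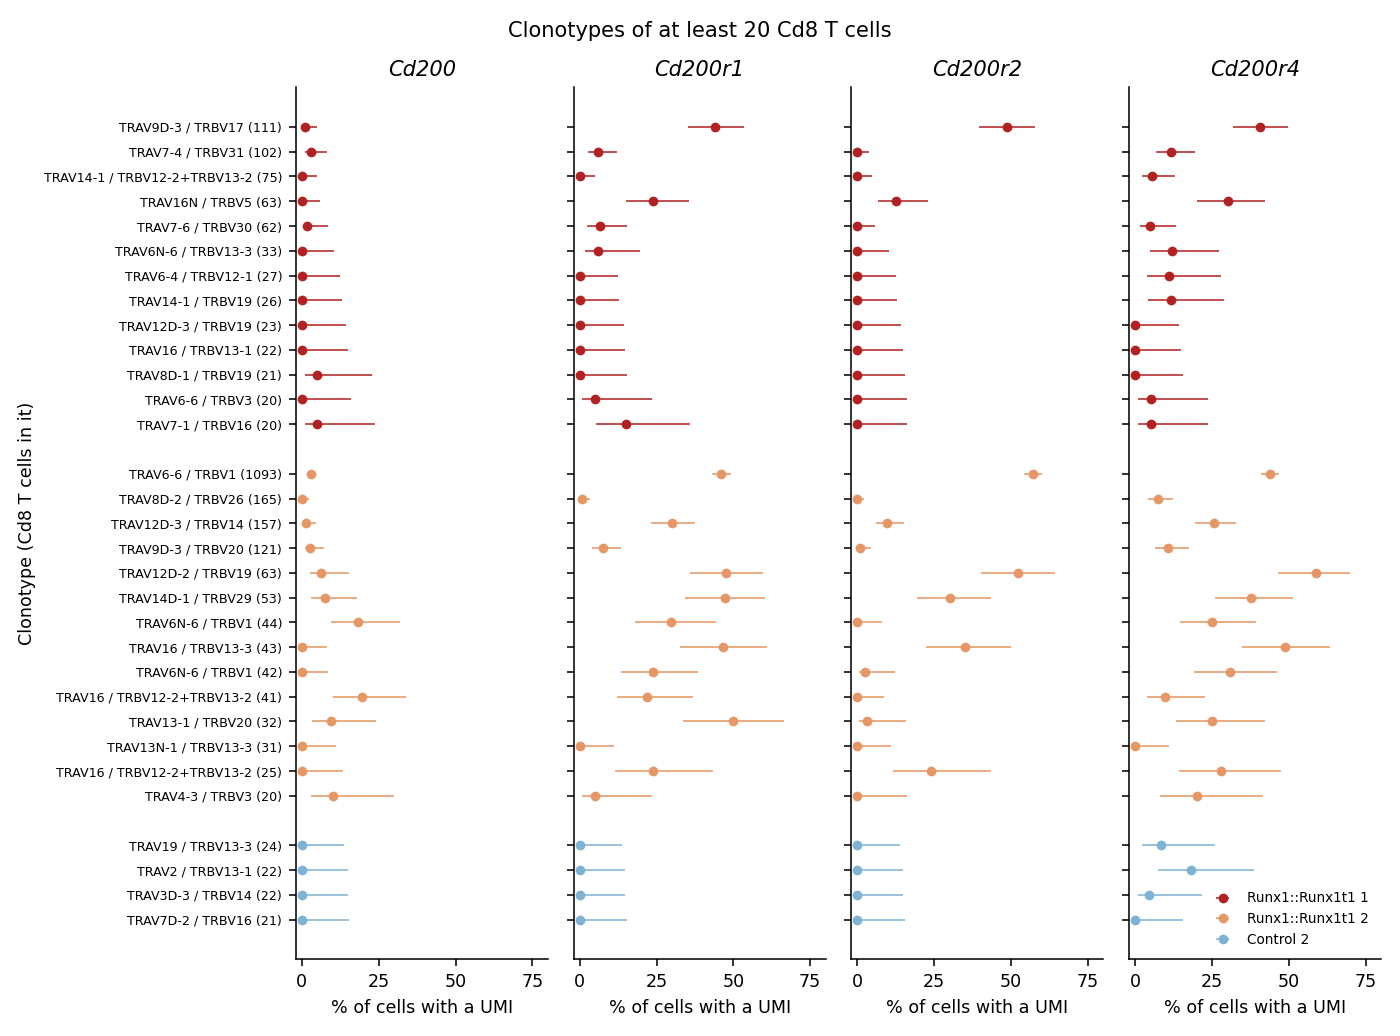
Percent of Cd8 T cells with a UMI of Cd200, Cd200r1, Cd200r2 or Cd200r4 (horizontal axes, with 95% Wilson intervals) in each clonotype of at least 20 Cd8 T cells (vertical axis, named by its V genes with its number of Cd8 T cells), colored by pool. Cd200r2 is found in 57.3% of cells of the TRAV6-6 and TRBV1 clone and in 0% of the next largest clone of the same pool, and the 4 clonotypes of Control 2 have none.

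Breadth over clones showed the same order in smaller clones. In clonotypes with 5 to 19 Cd8 T cells a Cd200r4 UMI was found in 52.9% of 17 clonotypes of Control 1, 45.5% of 33 of Control 2, 54.3% of 46 of Runx1::Runx1t1 1 and 71.0% of 31 of Runx1::Runx1t1 2. Cd200r1 was found in 17.6%, 15.2%, 23.9% and 51.6% of the same clonotypes. Cd200r2 was found in 10 of the 31 (32.3%) of Runx1::Runx1t1 2. It was found in 1 of the 17 of Control 1, 0 of the 33 of Control 2 and 1 of the 46 of Runx1::Runx1t1 1.

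Within the leading clone of Runx1::Runx1t1 2 the receptors were not split between cells. Of its 1093 cells, 179 had a UMI of no receptor, 372 of 1 receptor, 388 of 2 and 154 of all 3. Cd200r2 was found in 62.7% of cells with Cd200r1 and in 52.6% of cells without, and Cd200r4 in 45.2% and 42.8%. Among all expanded Cd8 T cells of that pool the contrast was wider, with Cd200r2 in 50.6% of cells with Cd200r1 against 24.5% of those without. In the expanded cells of that pool outside the leading clone these shares were 25.5% and 5.84%.

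Ligand and inhibitory receptor were also compared within the Cd4 class. Among Cd4 T cells with a Cd200 UMI, Cd200r1 was found in 5.66%, 5.45%, 17.1% and 10.8% of cells, against 4.89%, 6.71%, 6.29% and 8.54% of cells without. The share was higher with Cd200 in 3 of the 4 pools, and cells with Cd200 were deeper in the same 3 pools (medians of 5019, 6199 and 6903 UMIs against 4630, 5183 and 5509). Control 2 showed neither. The test below, which is scaled for depth, found no call for Cd200r1.

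The company the ligand keeps was tested by comparing Cd4 T cells with and without a Cd200 UMI, summed per pool (106, 55, 181 and 148 cells with Cd200) with the pool as a block. By edgeR's quasi-likelihood test 604 of 10161 genes (5.94%) were called, 307 higher with Cd200 (3.02%) and 297 lower (2.92%). Neither receptor of the family that could be tested was called: Cd200r1 had a log2 difference of 0.42 (SE 0.24, adjusted p = 0.385), which turned to -0.03 without Runx1::Runx1t1 1, and Cd200r4 of -1.46 (SE 0.44, adjusted p = 0.0716). Cd200r4 was nonetheless lower with Cd200 in all 4 pools, at 5.16, 3.57, 0.794 and 5.12 CPM against 6.12, 7.51, 9.25 and 10.9 CPM, from 1 to 6 UMIs per pool in the cells with Cd200.

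Follicular helper genes were higher in Cd4 T cells with Cd200. Of the 9 genes tested, 7 were higher and 1 was lower, with a median log2 difference of 0.91 beside -0.01 over all genes. Sostdc1, a secreted antagonist made by follicular T cells, stood at 206, 168, 5.56 and 8.53 CPM with Cd200 and at 43.1, 16.9, 0.193 and 0.731 CPM without, a log2 difference of 2.72 (SE 0.25, adjusted p = 3.32e-05). Il21, the cytokine of follicular helper cells, stood at 39.5, 17.8, 40.5 and 39.2 CPM against 9.18, 6.06, 9.54 and 10.7 CPM (1.92, SE 0.19, adjusted p = 4.75e-05). In both genes every pool moved the same way, while the level of Sostdc1 itself was far lower in the Runx1::Runx1t1 pools (log2 change of -5.23 between the groups in Cd4 T cells, adjusted p = 0.0029). Bcl6, the transcription factor that defines follicular helper cells, was higher by 1.42 (adjusted p = 0.022), a call lost without either Runx1::Runx1t1 pool, at adjusted p = 0.203 and 0.144. Il4, named after its values were seen as the 1 member that fell, decreased by 1.21 on the log2 scale (adjusted p = 0.0462). Without the pool as a block, where the pools differ in level, 132 genes were called, Il21 remained among them, and Sostdc1 (adjusted p = 0.437) and Bcl6 (0.0826) did not.

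Inhibitory receptors went with the ligand as well. Of 11 genes tested 7 were higher and none was lower, with a median of 0.50. Ctla4 stood at 621, 353, 573 and 479 CPM with Cd200 and at 315, 201, 305 and 305 CPM without, a log2 difference of 0.78 (SE 0.07, adjusted p = 3.07e-05). Btla (0.93, adjusted p = 0.0292), Pdcd1lg2 (0.81) and Lag3 (0.78) were also called, but each lost the call when any 1 of 3 of the 4 pools was left out (Runx1::Runx1t1 1 or Control 1 for all, Runx1::Runx1t1 2 for Btla and Pdcd1lg2, Control 2 for Lag3), and by DESeq2.

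Part of the cytotoxic and naive T cell genes were lower in Cd4 T cells with Cd200. Of 10 cytotoxic genes 4 fell and none rose, with a median of -0.74, led by Gzma (-1.97, adjusted p = 0.0059, or 0.120 without Runx1::Runx1t1 1) and Ccl5 (-1.51, adjusted p = 0.00124). Prf1 and Nkg7 were called too, but both lost the call without Runx1::Runx1t1 1, and Nkg7 also without Control 1. Ccl5, a chemokine of effector cells, stood at 495, 367, 5874 and 7509 CPM with Cd200 and at 2239, 2213, 10988 and 13208 CPM without. Of 8 naive genes 4 fell and none rose, with a median of -0.32, among them Satb1 (-1.32, adjusted p = 0.000385) and Lef1 (-0.63, adjusted p = 0.00203), both chromatin or transcription factors of naive T cells, and Il7r, which lost the call when any 1 of the 4 pools was left out. Among adaptors of activating receptors Fcer1g fell by 2.09 (adjusted p = 0.00084) and Hcst by 0.48 (adjusted p = 0.0042), 2 of 5 tested. Of the 7 genes of CD200R1 signaling Inpp5d was lower (-0.44, adjusted p = 0.0137, lost without either Runx1::Runx1t1 pool), and none of the 7 RAS and MAP kinase genes was called.

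**Figure D4:**
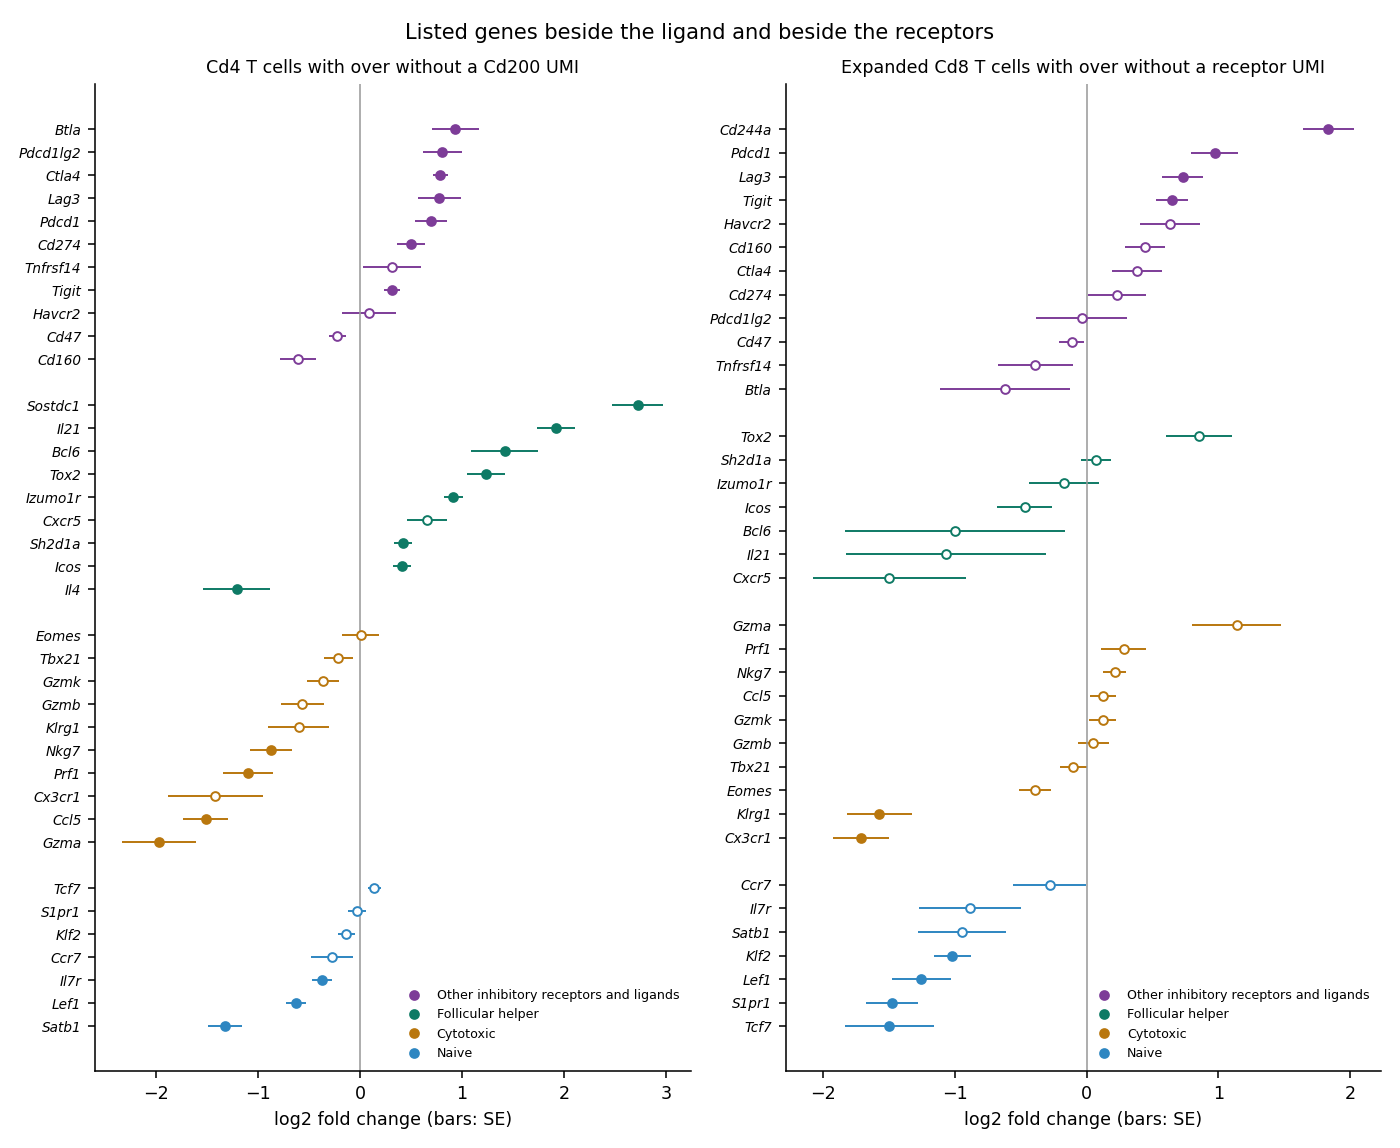
Log2 differences (horizontal axes, bars are SE) of genes from the inhibitory, follicular helper, cytotoxic and naive lists between Cd4 T cells with and without a Cd200 UMI (left) and between expanded Cd8 T cells with and without a Cd200r1, Cd200r2 or Cd200r4 UMI (right), with filled points for adjusted p under 0.05 by edgeR. Sostdc1 and Il21 lead on the left at 2.72 and 1.92, Cd244a leads on the right at 1.83, and naive genes that were called lie below 0 on both sides.

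The same question was put to the receptors by comparing expanded Cd8 T cells with and without a UMI of Cd200r1, Cd200r2 or Cd200r4. Control 1 had under 20 such cells and was left out, so 3 pools entered, with 31, 219 and 1339 receptor-positive cells in Control 2, Runx1::Runx1t1 1 and Runx1::Runx1t1 2. In the leading clones of Runx1::Runx1t1 1 and 2, 26 of 111 and 179 of 1093 cells had no receptor UMI. Among the other expanded cells of these pools 773 of 907 and 709 of 1134 had none. The split thus partly sets the leading clones apart from other clones, and calls without these clones are counted at the end. By edgeR's quasi-likelihood test 425 of 10061 genes (4.22%) were called, 185 higher with a receptor (1.84%) and 240 lower (2.39%), but 2 genes were called without the pool as a block. The ligand did not go with the receptors: Cd200 stood at 0, 2.87 and 6.82 CPM with a receptor and at 0.527, 3.63 and 5.93 CPM without, a log2 difference of 0.03 (SE 0.40, adjusted p = 1.0). In cells of at least 5000 UMIs it was -0.09.

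Of 12 other inhibitory receptors and ligands, 4 were higher in receptor-positive expanded cells and none was lower, with a median of 0.41. Cd244a, a receptor of the SLAM family also known as 2B4, stood at 25.5, 89.8 and 143 CPM against 4.22, 15.8 and 51.3 CPM in the order Control 2, Runx1::Runx1t1 1 and Runx1::Runx1t1 2 (log2 difference 1.83, SE 0.20, adjusted p = 0.000412), higher in all 3 pools and called in each fit that left out a pool. Pdcd1 (0.97, adjusted p = 0.00886), Lag3 (0.73, adjusted p = 0.0181) and Tigit (0.65, adjusted p = 0.0103) were called as well, and lost the call without Runx1::Runx1t1 1, at adjusted p = 0.263, 0.368 and 0.145. By DESeq2, which called 76 genes, Cd244a was called, Pdcd1 (adjusted p = 0.122) and Lag3 (0.0668) were not, and without the pool as a block none of the 4 was (Cd244a at adjusted p = 0.834). Pdcd1 was not higher in Control 2, at 15.3 CPM against 17.4 CPM.

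Most naive T cell genes and 2 genes of circulating effector cells were lower with a receptor. Of 8 naive genes 5 fell, with a median of -1.07, among them S1pr1, the receptor for exit from tissue (-1.47, adjusted p = 0.00168), Lef1 (-1.25, adjusted p = 0.00847, or 0.171 without Runx1::Runx1t1 2) and Tcf7 (-1.50, adjusted p = 0.026). Tcf7 stood at 79.7 and 9.29 CPM with a receptor against 173 and 63.2 CPM without in the Runx1::Runx1t1 pools, and was not lower in Control 2 (214 against 201 CPM). Neither Tcf7 nor Lef1 was called by DESeq2 (adjusted p = 1.0 and 0.0968). Of 10 cytotoxic genes 2 fell, Cx3cr1 (-1.72, adjusted p = 0.00103) and Klrg1 (-1.57, adjusted p = 0.00427), both markers of effector cells in circulation. With at most 5 cells drawn per clonotype, which also left fewer cells, the log2 difference of Klrg1 was 0.03 (adjusted p = 0.991). The part of large clones in its fall was not tested. None of the genes of CD200R1 signaling (7 tested), adaptors (5), RAS and MAP kinases (7) or follicular helper cells (7) was called.

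The partners through which these receptors signal were followed by clone size, where 23.9% of all genes were called. Of 8 genes of CD200R1 signaling 3 were higher in expanded Cd8 T cells and none was lower, with a median of 0.28. Dok1 stood at 33.5, 21.5, 33.4 and 41.9 CPM in expanded and 16.2, 17.2, 15.4 and 13.9 CPM in single cells (log2 difference 0.76, SE 0.19, adjusted p = 0.026), Dok2 at 146, 142, 139 and 122 against 64.4, 79.0, 78.2 and 81.8 CPM (0.54, adjusted p = 0.0125), and Inpp5d, the lipid phosphatase SHIP1, at 157, 128, 132 and 136 against 73.3, 79.0, 73.6 and 78.3 CPM (0.55, adjusted p = 0.00512). Every pool was higher in expanded cells for all 3 genes. Dok1 lost the call without Runx1::Runx1t1 1 (adjusted p = 0.131) or Control 1 (0.077), and Dok2 without Runx1::Runx1t1 1 (0.072).

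The adaptor of the activating receptors did not rise with them. Of 6 adaptors and kinases 2 were higher, Zap70 and Hcst (each 0.45 on the log2 scale), and 2 were lower, Fcer1g (-1.62, adjusted p = 0.00405) and Tyrobp (-0.92, adjusted p = 0.0256). Neither Fcer1g nor Tyrobp was called without the pool as a block (adjusted p = 0.102 and 0.108). Tyrobp stood at 21.9, 29.1, 25.0 and 9.86 CPM in expanded and 65.7, 55.8, 23.8 and 13.9 CPM in single cells, so it fell in both controls and Runx1::Runx1t1 2 and not in Runx1::Runx1t1 1. Its call was lost without either control pool, at adjusted p = 0.0606 and 0.077. Of 7 RAS and MAP kinase genes 2 were higher and 2 lower, and these 4, Zap70 and Hcst lost the call without Runx1::Runx1t1 1. Other inhibitory receptors (7 of 13 higher, median 0.90), led by Havcr2 (4.95, adjusted p = 0.000645) and Pdcd1 (4.53, adjusted p = 0.000522), rose beside the Cd200 receptors, as did all 10 cytotoxic genes, and all 8 naive genes fell.

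Between the groups the same lists moved in other classes. In Cd4 T cells, where 1.85% of all genes were called higher and 1.18% lower, 3 of 13 inhibitory genes rose in the Runx1::Runx1t1 group, Havcr2 (4.36), Lag3 (2.19) and Tigit (1.37), of which Lag3 was not called by DESeq2 (adjusted p = 0.0998). There 6 of 10 cytotoxic genes were higher and 4 of 8 naive genes lower, and no gene of CD200R1 signaling (8 tested) or its adaptors (6) was called. In T cells without a co-receptor UMI, where 4.12% of all genes were called higher and 2.3% lower, 6 of 13 inhibitory genes rose, among them Havcr2 (2.61), Lag3 (2.33) and Ctla4 (2.23), and Cd160, named as the 1 that fell, was lower (-0.76). Havcr2 lost the call without Control 1 (adjusted p = 0.161), with doublets kept (0.0525) and in cells of at least 5000 UMIs (0.164). Of 6 adaptors and kinases 2 were lower, Tyrobp and Fcer1g (-1.22), and Fcer1g lost the call without Control 1 (adjusted p = 0.0694). In Foxp3 T cells, the class highest in Cd200r1, Cd274, the ligand of PD-1, was the 1 inhibitory gene called, at 93.0 and 93.2 CPM against 47.1 and 46.1 CPM (log2 change 1.02, SE 0.13, adjusted p = 0.0343), a call lost with cells of at least 2 Cd4 UMIs (0.123) and without the low-count filter (0.158). In Cd8 T cells the 1 listed gene called was Eomes, a transcription factor of effector and memory cells (1.15, lost without either control pool).

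The neighbours of the receptor genes on chromosome 16 were compared by clone size to see whether the pattern went beyond the family. The 5 nearest genes on each side of the receptor genes and of Cd200 gave 16 genes, of which 8 are in the count tables and 6 had enough UMIs to be tested. Of these, 1 was called higher in expanded Cd8 T cells and none lower, beside 11.4% of all genes called higher. It was Ccdc80, a secreted matrix protein gene not known as a T cell marker, at 45093407 to 45127924, which begins 177566 bases past the end of Cd200r2 and ends 254210 bases before Cd200. Its log2 difference was 7.77 (SE 0.58, adjusted p = 0.00198), from 4 UMIs in single and 533 in expanded cells. Nepro (-0.15), Gtpbp8 (0.12), Slc35a5 (0.31) and Atg3 (0.24) were not called, and Btla, the inhibitory receptor gene next to Cd200, had a log2 difference of -1.55 (SE 0.48, adjusted p = 0.0553).

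Ccdc80 was found mainly in clones that also had Cd200r2. Among Cd8 T cells 48 UMIs were found in 24 cells of Runx1::Runx1t1 1, 565 in 263 cells of Runx1::Runx1t1 2, and none in either control pool. Its level in expanded cells was 7.08 and 35.3 CPM in these pools, and outside Cd8 T cells it stayed at or below 1.14 CPM in every class described above. Of the Cd8 T cells with Ccdc80, 75.0% and 70.0% also had Cd200r2, against 0.925% and 10.0% of those without. The part of clone membership in this contrast was not tested. The largest clonotypes of these pools held 83.3% and 69.0% of the Ccdc80 UMIs. The clones with the highest shares of cells with Ccdc80 were TRAV14D-1 (22.6%), TRAV6-6 with TRBV1 (16.8%), TRAV9D-3 with TRBV17 (15.3%) and TRAV12D-2 (14.3%). Other clones had Cd200r2 with little Ccdc80. TRAV16 with TRBV13-3 had Cd200r2 in 34.9% of 43 cells and Ccdc80 in 1 cell, and TRAV16N had Cd200r2 in 12.7% of 63 and Ccdc80 in 1. The call rests on both Runx1::Runx1t1 pools, since without either of them the gene had too few UMIs to be tested, and DESeq2 gave adjusted p = 0.139. Without the largest clonotype of each pool the log2 difference was 6.05 (adjusted p = 0.00251).

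**Figure D5:**
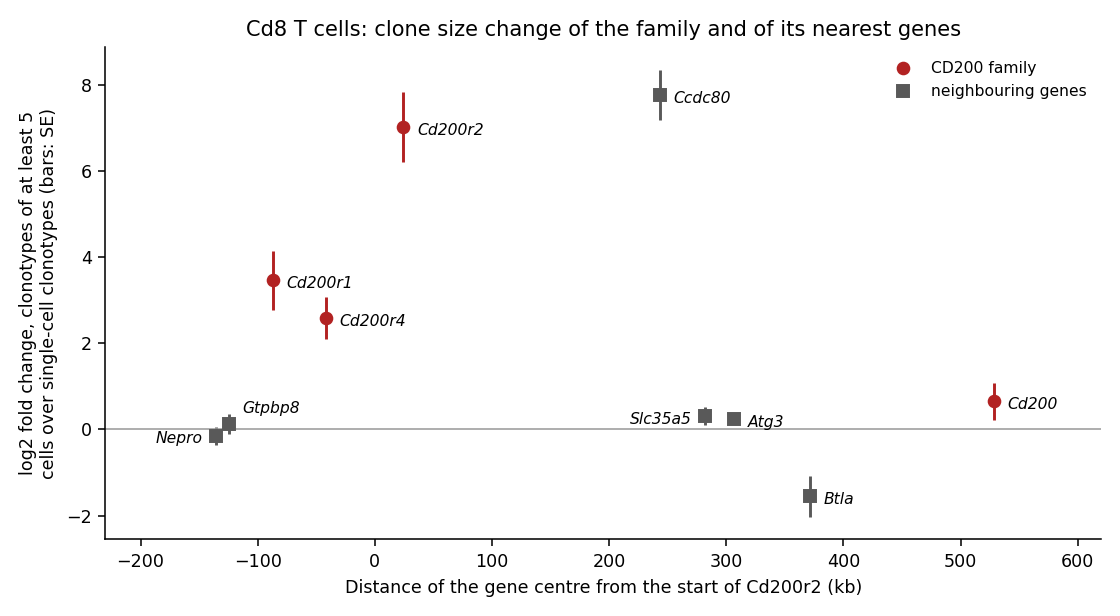
Log2 difference between expanded and single Cd8 T cells (vertical axis, bars are SE) of the tested genes of the family and of their nearest tested genes, placed by the distance of the gene centre from the start of Cd200r2 in kilobases (horizontal axis). Ccdc80 (7.77) stands beside Cd200r2 (7.02) in height, while the genes between Ccdc80 and Cd200 lie near or below 0.

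The genes most like each member were taken by Pearson's r of log2(CPM + 1) over 45 sums per pool, class and clone size bin, among 12399 genes. The sums share pools and cells of the same clones, so the values are a description. Cd200 was most like Nrn1 (0.860), Rilpl2 (0.854), Rabgap1l (0.848), Atp9a (0.842) and Icos (0.842), the costimulatory receptor of follicular helper and regulatory T cells. Cd200r1 was most like Itgav (0.914), an integrin chain, Tnfrsf9 (0.898), the costimulatory receptor 4-1BB, Pglyrp1 (0.873), Samsn1 (0.872) and Ap3b1 (0.870). Cd200r2 was most like Tmprss6 (0.888), Glp1r (0.886), Mrc2 (0.883), Ccdc80 (0.861) and Insrr (0.859), and Cd200r4 like Selenon (0.876), Runx3 (0.840), the transcription factor of the Cd8 lineage, Serpinb6b (0.832), Ncald (0.819) and Arsb (0.813). No member was among the 5 genes most like another: between members r was 0.593 for Cd200 with Cd200r1, 0.573 for Cd200r2 with Cd200r4, 0.313 for Cd200r1 with Cd200r2, 0.066 for Cd200r1 with Cd200r4, -0.195 for Cd200 with Cd200r2 and -0.333 for Cd200 with Cd200r4.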

How the data were processed

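Gene expression of sorted bone marrow T cells was measured by 10x 5′ single-cell RNA sequencing in 4 libraries, 2 pools per group, and TCR chains in 4 companion libraries. The authors aligned reads to GRCm38 with Cell Ranger 6.1.2 and deposited UMI counts per gene and called cell, without normalization, and contig tables with UMI counts per chain. Cells with fewer than 200 genes or with over 15% of UMIs from mitochondrial genes were dropped. Doublets were removed with Scrublet (expected rate 0.05), or as the 5% of highest scores in the 3 libraries where its own threshold marked under 0.5%, so that 4.22% to 5.40% of barcodes were removed. Cells with UMIs of both co-receptors (1750) or of no class (2490) entered no comparison.

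Counts were summed per pool (at least 20 cells per sum) and tested with edgeR 4.0.16 in R 4.3.3 (TMM, filterByExpr, quasi-likelihood test, two-sided, Benjamini-Hochberg at 0.05). DESeq2 1.42.0 and other filters, gates, clone size limits and left-out pools were alternatives. The methods of the study compare cells by rank tests, which were replaced here because cells are not replicates. Tested on simulated data in which 200 genes were changed, the fit found 176 of them beside 6 false ones (Cd8 group comparison) and 167 beside 8 (clone size). The simulated pools shared a common level per gene and a fixed dispersion, without differences between pools or clones. These figures therefore do not describe how the fit handles such differences in the real pools. Some listed genes are counted in their lists and not reported here by name. The members, gene lists and motifs were chosen with earlier results of these data known. Named genes were the family, for each list the 2 to 4 called genes with the largest change, the 5 nearest genes on each side and the 5 genes most like each member. GENCODE M21 and RefSeq (GRCm38.p6) gave positions and promoters.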

Additional observations from a re-analysis of the deposited data

Results flagged for a closer look

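Values above the control level were found in cells outside every comparison. Among cells with UMIs of both co-receptors, Cd200r1 stood at 19.9 and 28.3 CPM in the Runx1::Runx1t1 pools and at 8.01 and 12.8 CPM in the controls, and Cd200r2 at 1.15 and 14.5 CPM against 0 and 1.12 CPM. The 1.15 CPM rest on 6 UMIs. Among cells of no class, which had the fewest UMIs per cell, Cd200r4 stood at 7.91 and 6.92 CPM in the Runx1::Runx1t1 pools and at 1.43 and 1.61 CPM in the controls, from 4 to 10 UMIs per pool. These differences were not tested.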

How the results depend on the processing

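With 2 pools per group the counts of called genes moved widely. Mean levels in Cd8 T cells moved with the pool left out, from 1.13 to 11.5 CPM for Cd200r2, from 2.92 to 10.6 for Cd200r1 and from 5.65 to 12.7 for Cd200r4. Between the groups in Cd8 T cells 16 genes were called, against 868 by DESeq2, 864 without the low-count filter, 939 with the replicate block, 8 with the stricter gate and 3 to 1616 with 1 pool left out. In Cd4 T cells 342 were called, against 795 without the filter and 323 to 866. In Foxp3 T cells 11 were called, against 57 by DESeq2, 115 with the replicate block, 56 with doublets kept, 0 without the filter (1146 at an unadjusted p under 0.05), 0 with the stricter gate (778) and 86 to 467. In T cells without a co-receptor UMI 823 were called, against 1767 with the replicate block, 427 with the stricter gate (here cells of at least 5000 UMIs) and 232 to 1298. For clone size 3028 were called, and 863 to 2850 with 1 pool left out (863 without Runx1::Runx1t1 1). Its interaction with the group called 0, against 135 by DESeq2, 694 without the filter, 13 with clonotypes of at least 20 cells, 1 without the largest clonotypes, 48 with at most 5 cells per clonotype and 0 to 1569. With Cd200 in Cd4 T cells 604 were called, against 364 by DESeq2, 1000 without the filter, 132 with no pool block and 205 to 579. With a receptor in expanded Cd8 T cells 425 were called, against 76 by DESeq2, 774 without the filter, 2 with no pool block, 225 without the largest clonotypes, 117 with at most 5 cells per clonotype and 167 to 928. The cause of these moves was not tested.

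The Cd200 level in Cd4 minus Cd8 T cells, 18.4 CPM over the 4 pools, ran from 15.5 to 20.5 with 1 pool left out. The mean of the 3 receptors in expanded minus single Cd8 T cells, 31.03 CPM, ran from 11.3 (without Runx1::Runx1t1 2) to 40.4, and was 15.4 without the largest clonotypes.

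Signs that turned all belonged to differences that were not called, except that of Klrg1. Between the groups with 1 pool left out, Cd200 in Cd4 T cells ran from -0.543 (without Control 2) to 0.326, Cd200r1 in Foxp3 T cells from -0.181 to 0.0378, and in T cells without a co-receptor UMI Cd200r2 from -0.0825 to 0.361 and Cd200r4 from -0.104 to 0.0756. With the stricter gate Cd200r1 in Foxp3 T cells was 0.0309 and Cd200r4 in T cells without a co-receptor UMI 0.128, and with doublets kept the latter was 0.00678. In Cd4 T cells with Cd200, Cd200r1 ran from -0.0308 (without Runx1::Runx1t1 1) to 0.550. With a receptor in expanded Cd8 T cells, Cd200 was -0.0882 in cells of at least 5000 UMIs, and Klrg1 was 0.0301 with at most 5 cells per clonotype.

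Replicate numbers are shared by the labels of both groups. The methods speak of littermates, but neither they nor the labels tie a number to a litter or batch, so the numbers were not taken to pair the pools. Deviations of pools with the same number correlated at 0.278 in Cd8, 0.240 in Cd4, 0.264 in Foxp3 and 0.420 in T cells without a co-receptor UMI. Low counts limit the precision of Cd200r2 in the control pools, where it rested on 6 and 9 UMIs in Cd8 T cells.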
